A study of Gallus gallus with 5 samples.

Results

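Transcripts of DNA repair and damage response genes were read in chicken DT40 cells that lack or carry forms of the histone variant H2A.Z. The members were 57 genes of break sensing, recombination, crosslink repair, end joining, translesion synthesis, excision repair and the damage response, and a gene counted as measured where the RefSeq accession of an array probe carried its symbol. By that rule 36 of the 57 genes were measured, with 73 probes, among 5382 named genes on the array. The other 21 genes, RAD50, ATR, RAD51B, RAD51C, XRCC2, FANCM and XRCC4 among them, were not analysed here. Of the 36 measured genes, 34 were well above background on all 5 arrays. POLK, a translesion polymerase, was on none, which left 35 genes in each comparison.

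DT40 is a B cell line from a chicken lymphoma, much used for the genetics of DNA repair because introduced DNA readily recombines into the matching locus. Its immunoglobulin light chain gene also goes on diversifying in culture by gene conversion, a form of homologous recombination. Broken ends are sensed by the MRE11, RAD50 and NBN complex and the kinase ATM, and are then repaired from an intact copy by homologous recombination or joined directly by Ku and ligase IV. The Fanconi anaemia proteins unhook crosslinks between the strands, translesion polymerases copy past damaged bases, and excision pathways remove damaged bases or stretches of one strand.

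Each of 5 lines was measured on 1 one-colour Agilent array. The lines were wild-type DT40 cells of clone 18 (WT), H2A.Z double knockout cells (DKO), and DKO cells stably expressing H2A.Z.1, 5KR-H2A.Z or H2A-H2A.Z, the last 2 being mutants of H2A.Z.1 whose changes the labels do not spell out. Tetracycline at 2 µg/ml was in the medium of all 5 lines for 72 hours to shut off a repressible H2A.Z.1 transgene, per the labels, and 100 ng of RNA was processed. The title of the DKO array names the double knockout, whereas its description and genotype repeat those of the H2A.Z.1 line. The title was followed, and the array is called DKO. WT, DKO and DKO+H2A.Z.1 shared slide 1 and both mutant lines shared slide 2, so that in comparisons across the slides the line and the slide cannot be told apart. A single array stands for each line, so the differences come without replicates and without p-values, and whether another culture of a line would read alike was not measured.

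H2AFZ, an H2A.Z gene, was read by 2 probes, and no other H2A.Z gene was looked at here. In the 4 derived lines 1 probe lay 24.8-fold to 33.4-fold below WT and the other 82.6-fold to 99.0-fold below, and both stayed well above background. DKO read 27.0-fold and 92.7-fold below WT on the 2 probes, and DKO+H2A.Z.1 33.4-fold and 89.2-fold. H2AFZ therefore does not tell these 2 arrays apart or settle the labels of the DKO array. Whether these probes read the introduced forms was not tested. The share of spots well above background ran from 66.5% in DKO to 69.8% in WT, and no spot was saturated. Of 11 measured B cell markers 10 were well above background on all arrays. Of 6 measured T cell markers 4 were on all arrays and CD4 on none, and of 7 myeloid markers 4 were on all. Of 3 erythroid markers 1 was on all arrays, and TAL1 and HBZ were on none. The mean log2 level of the B cell markers lay between 0.81 and 1.40 over the 5 lines, and that of the T cell markers between -4.31 and -3.86. That of the myeloid markers lay between -4.49 and -3.55, and that of the erythroid markers between -7.20 and -6.30.

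Levels are log2 signals relative to the 75th percentile of each array, so that a level of 0 is the signal at that percentile, and single genes are set side by side only on the same probe. A difference of at least 2-fold is called here without a test. For the members named below, an error of each difference was combined from the scanner software's own errors of both signals. It was 0.20 to 0.23 on the log2 scale, or up to 0.38 for DCLRE1C against DKO. That error covers the spots on both arrays compared and says nothing of the spread between cultures.

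The knockout was first set against WT. In DKO, 7 of the 35 repair genes, NBN, RAD51D, DCLRE1C, DDB2, FANCC, FANCA and GADD45G, read lower by 2-fold or more, and 0 read higher. The 7 are 20.0% of the members, beside 11.1% of all 4417 named genes compared that were lower and 4.21% that were higher by as much. The members were chosen with earlier results of these data known, so their share describes this list only. The 7 genes come from 6 of the 8 role groups. Each group holds few genes, so counts within a group are not read as results about its pathway. In RNA from a whole culture, fewer cells expressing a gene and less RNA in each cell cannot be told apart. The median difference was -0.13 over the members and 0.15 over all genes. With H2A.Z.1 expressed in the knockout, 5 of the 35 genes, NBN, DCLRE1C, MND1, RAD51D and FANCC, were above DKO by 2-fold or more and 0 below. That is 14.3% of the members, beside 8.08% of all genes higher and 2.65% lower. The median was 0.17 over the members and -0.21 over all genes. These 2 comparisons share the DKO array, so a low reading on that array enters both.

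**Figure D1:**
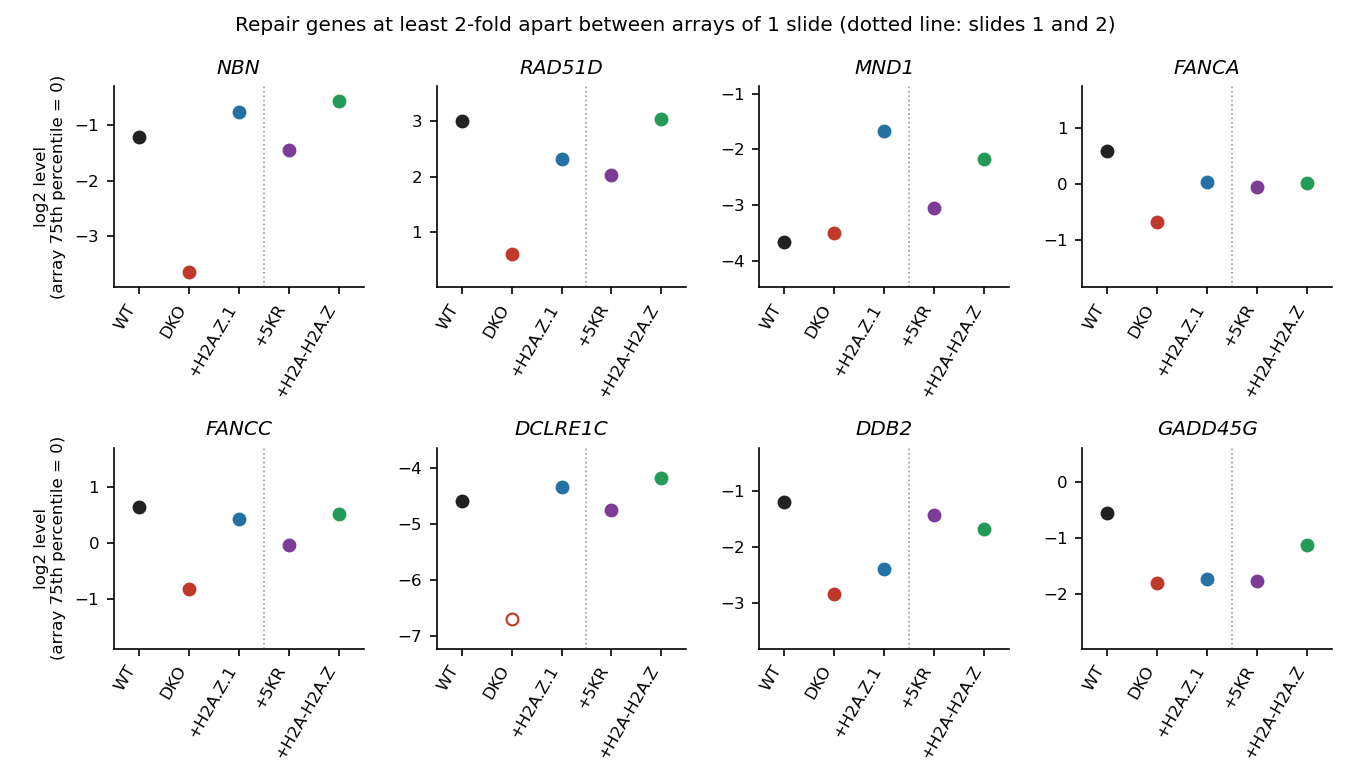
Log2 level, with the 75th percentile of each array at 0, of the 8 repair genes at least 2-fold apart within a slide. Each point is 1 array and the hollow point is not well above background; the vertical axes differ between panels. DKO is the lowest array for every gene but MND1, which is lowest in WT, and for GADD45G it is lowest by only 0.05.

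Among the break sensing and signalling genes, NBN, the subunit of the MRE11 complex that brings ATM to a break, was the 1 member of 5 past 2-fold on slide 1. Its level was -1.21 in WT, -3.64 in DKO, -0.77 in DKO+H2A.Z.1, -1.45 in the 5KR-H2A.Z line and -0.58 in DKO+H2A-H2A.Z. DKO alone was low, 5.36-fold below WT, and the line with H2A.Z.1 lay 7.29-fold above it. The single probe of NBN (NM_204337) gave a difference of DKO from WT between -2.92 and -1.68 over the alternative treatments of the values. Of those treatments 6 changed the value, and the other 3 returned it by construction. The probe is single and has no marked spot, and the deposited values are the same signal times 1 constant for each array.

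The nuclease MRE11A differed far less, with levels of -0.72 in WT, -0.98 in DKO, -0.60 in DKO+H2A.Z.1, -0.71 in the 5KR-H2A.Z line and -0.47 in DKO+H2A-H2A.Z. ATM, the kinase that the complex activates, read 0.89, 0.76, 0.77, 0.56 and 0.71 in the same order of lines. The checkpoint kinases CHEK1 and CHEK2, which carry the signal on to the cell cycle, differed by 0.08 and 0.27 between DKO and WT. Of the 5 genes of this group only NBN was past 2-fold in that comparison, or 20.0% beside 11.1% of all genes lower. The group's median was -0.13.

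In homologous recombination, RAD51D, which works in a complex with other recombination factors at single-stranded DNA, was the 1 member of 8 past 2-fold between DKO and WT. Its level was 2.99 in WT, 0.61 in DKO, 2.32 in DKO+H2A.Z.1, 2.03 in DKO+5KR-H2A.Z and 3.04 in the H2A-H2A.Z line. DKO was the lowest array, 5.21-fold below WT, and DKO+H2A.Z.1 was 3.27-fold above DKO. Both probes of RAD51D (NM_001198646) gave this, with differences of DKO from WT of -2.38 and -2.28. In the H2A.Z.1 line RAD51D lay 0.67 log2 below WT, at 62.6% of its level, short of 2-fold.

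MND1, known in yeast and mouse as a partner of the meiotic strand exchange proteins, was the 1 member of the 9 ranging 2-fold or more that was lowest in WT. Its level was -3.66 in WT, -3.50 in DKO, -1.67 in DKO+H2A.Z.1, -3.06 in the 5KR-H2A.Z line and -2.18 in DKO+H2A-H2A.Z. WT and DKO were both low, and their difference of 0.16 changed sign under 2 alternatives. The H2A.Z.1 line was the highest array, 3.55-fold above DKO and 3.96-fold above WT. MND1 (NM_001257313) has 1 probe, and over the alternatives these differences ran from 1.26 to 2.38 and from 1.49 to 2.04 on the log2 scale.

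The other 6 recombination genes were within 2-fold in all comparisons on slide 1. BLM, the helicase that dissolves joined DNA molecules, read 2.58 in WT, 2.94 in DKO, 2.62 in DKO+H2A.Z.1, 2.58 in DKO+5KR-H2A.Z and 2.55 in the H2A-H2A.Z line. All 4 of its probes were above WT in DKO, by 0.30 to 0.68, but the sign on its brightest probe turned when the arrays were scaled on spike-in probes. BRCA1 and BRCA2, which direct broken ends into recombination, differed between DKO and WT by 0.33 and 0.05, the recombination factor XRCC3 by -0.09, and RAD52 and RAD54B by 0.03 and 0.15. The group's median in that comparison was 0.10.

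Of the 9 measured genes of the Fanconi and crosslink group, FANCC and FANCA were past 2-fold between DKO and WT. These are 22.2% of the group, beside 11.1% of all genes lower. Both encode members of the core complex that marks FANCD2 and FANCI with ubiquitin. FANCC (NM_001006587) read 0.64 in WT, -0.83 in DKO, 0.43 in DKO+H2A.Z.1, -0.03 in DKO+5KR-H2A.Z and 0.51 in the H2A-H2A.Z line. DKO was lowest, 2.77-fold below WT, and DKO+H2A.Z.1 was 2.40-fold above DKO. The second, dimmer probe of FANCC differed in the same directions without reaching 2-fold, by -0.80 and 0.97.

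FANCA (NM_001134359) read 0.59 in WT, -0.69 in DKO, 0.03 in DKO+H2A.Z.1, -0.06 in DKO+5KR-H2A.Z and 0.02 in the H2A-H2A.Z line. DKO lay 2.43-fold below WT, and the 3 lines expressing a form of H2A.Z lay between the 2. They read 67.8%, 63.6% and 67.1% of WT, so none of the 3 was 2-fold from either WT or DKO.

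FANCL, the ubiquitin ligase of the core complex, read 2.23 in WT, 1.57 in DKO, 2.53 in DKO+H2A.Z.1, 2.63 in DKO+5KR-H2A.Z and 2.51 in the H2A-H2A.Z line. DKO was again the lowest array, 0.66 log2 below WT, and on its brighter probe FANCL passed 2-fold only in DKO+5KR-H2A.Z against DKO, which lie on different slides. Its second probe also passed it in the H2A.Z.1 line against DKO on slide 1, by 1.08, and in the H2A-H2A.Z line, by 1.06. The brighter probe differed by 0.96 in the former, and by 0.81 to 1.51 over the alternatives. The substrates FANCD2 and FANCI differed by -0.22 and -0.25 between DKO and WT, and FANCB, DCLRE1A and DCLRE1B by 0.05, 0.12 and -0.01. FANCG, a core complex scaffold, varied least of all 35 genes, reading 2.32, 2.40, 2.26, 2.37 and 2.32 from WT to DKO+H2A-H2A.Z, a range of 0.15.

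Of the 4 measured end joining genes, 1, DCLRE1C, was past 2-fold between DKO and WT, and the group's median was -0.53. DCLRE1C encodes Artemis, the nuclease that opens the hairpin ends of antigen receptor gene rearrangement. Its level was -4.58 in WT, -6.69 in DKO, -4.33 in DKO+H2A.Z.1, -4.75 in the 5KR-H2A.Z line and -4.17 in DKO+H2A-H2A.Z. In DKO neither of the 2 probes of DCLRE1C (NM_001031594) was well above background, so its level there is uncertain. The dimmer probe differed by -2.07 between DKO and WT and by 2.03 between the H2A.Z.1 line and DKO. On the brighter probe DKO read 4.31-fold below WT, and the H2A.Z.1 line 5.13-fold above DKO. Under normexp background correction these differences were -0.39 and 0.51, short of 2-fold.

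Ligase IV, encoded by LIG4, seals the joined ends. LIG4 read -2.29 in WT, -3.03 in DKO, -2.56 in DKO+H2A.Z.1, -2.19 in the 5KR-H2A.Z line and -2.50 in DKO+H2A-H2A.Z, lowest in DKO by 0.73 below WT. XRCC6, the Ku70 subunit that holds the ends, read 2.48, 2.14, 2.47, 2.20 and 2.45 in the same order. The kinase gene PRKDC has no settled direction, since it differed by -0.14 on its brightest of 6 probes, 4 of the 6 were above 0, and the probes ran from -0.31 to 0.39.

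None of the 5 members compared from translesion synthesis and from base excision and single-strand break repair was 2-fold apart on slide 1. Between DKO and WT 15.3% of all genes were apart, so a count over so few genes is not read as a result. RAD18, the ubiquitin ligase that calls translesion polymerases to a stalled fork, read 3.96, 3.67, 3.74, 3.79 and 3.78 from WT to DKO+H2A-H2A.Z. The polymerase genes REV1 and POLH differed by 0.31 and -0.28 between DKO and WT. PARP1, the sensor of single-strand breaks, read 5.51, 6.0, 5.62, 5.50 and 5.57, highest in DKO by 0.49 over WT, a difference that became -0.01 with spike-in scaling. UNG, which removes uracil from DNA, differed by 0.26.

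In nucleotide excision repair, DDB2, which in mammals recognises ultraviolet lesions, read -1.18 in WT, -2.84 in DKO, -2.38 in DKO+H2A.Z.1, -1.41 in the 5KR-H2A.Z line and -1.67 in DKO+H2A-H2A.Z. DKO and the H2A.Z.1 line were the low arrays, 3.16-fold and 2.29-fold below WT. The 2 probes of DDB2 (NM_001039301) disagreed, the second differing by 0.18 and -0.11 in these comparisons, and the median over both probes gave -0.74 and -0.65, short of 2-fold. XPA, the damage verification factor, read 4.88, 5.14, 5.07, 5.29 and 5.00 from WT to DKO+H2A-H2A.Z.

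The list ends with 2 damage-induced genes. GADD45G, a stress gene of growth arrest, read -0.55 in WT, -1.81 in DKO, -1.73 in DKO+H2A.Z.1, -1.76 in the 5KR-H2A.Z line and -1.14 in DKO+H2A-H2A.Z. WT was the high array, with DKO 2.39-fold and DKO+H2A.Z.1 2.26-fold below it. Both probes of GADD45G (NM_001044666) were past 2-fold in both comparisons, and DKO and DKO+H2A.Z.1 differed by only 0.08, which changed sign under 2 alternatives. DDIAS, a suppressor of damage-induced cell death in human cells, read -0.51, -1.22, -0.33, -0.73 and -0.34 in the same order, lowest in DKO by 0.71 below WT.

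**Figure D2:**
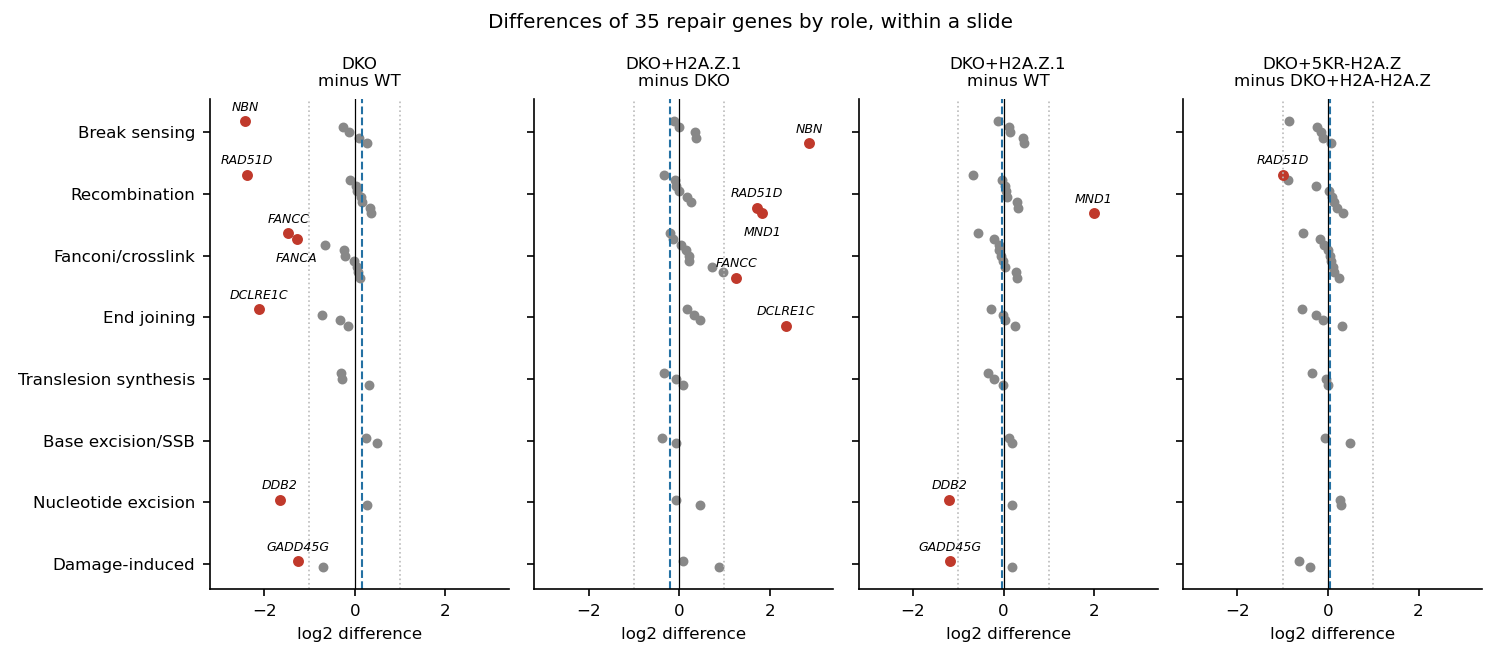
Log2 difference of each of 35 repair genes by role, for the 4 comparisons within a slide. Red points are at least 2-fold apart (dotted lines) and the dashed line is the median of all named genes. On the left 7 genes lie below -1 and 0 above 1, and in the second panel 5 lie above 1.

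The H2A.Z.1 line was also set directly against WT. Each genotype was read in 1 line, so genotype and other differences between the lines cannot be told apart. By 2-fold or more, MND1 was higher and DDB2 and GADD45G were lower, 1 and 2 of the 35 genes, beside 1.94% of all genes higher and 3.93% lower. The members' median was 0.04, and that of all genes -0.04. As a percentage of WT, NBN went from 18.7% in DKO to 136% in DKO+H2A.Z.1, RAD51D from 19.2% to 62.6%, and FANCC from 36.2% to 86.7%. DCLRE1C read 23.2% in DKO, where it was not well above background, and 119% in DKO+H2A.Z.1. GADD45G read 41.8% and 44.2%.

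**Figure D3:**
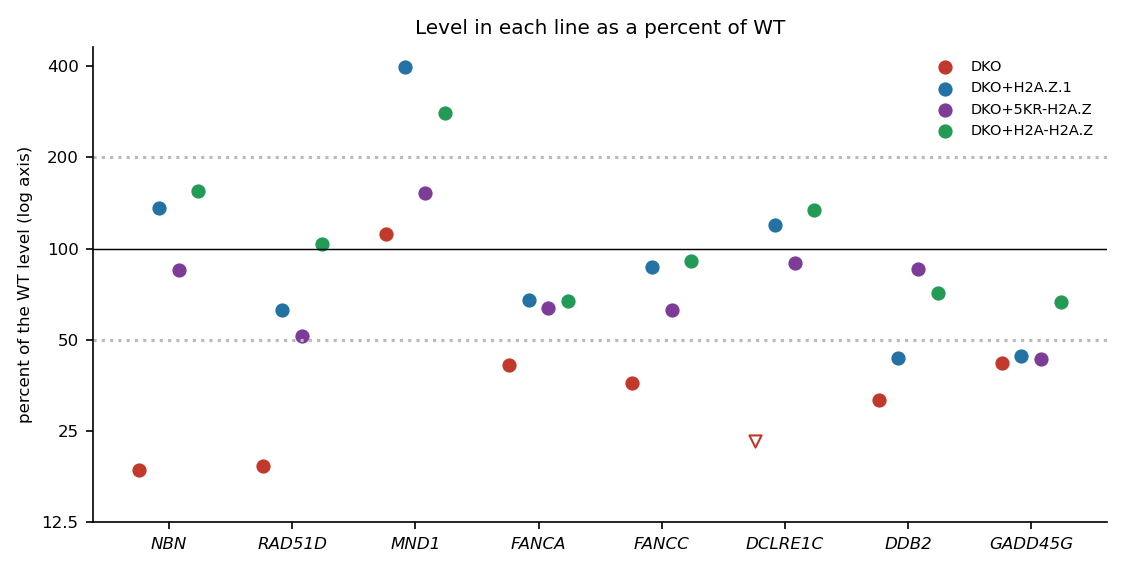
Level of 8 repair genes in each derived line as a percentage of WT, on a log axis, with dotted lines at 2-fold either way. The open triangle is DCLRE1C in DKO, where it was not well above background and its level is uncertain. NBN reads 18.7% in DKO and 85.0% to 155% in the other lines, whereas GADD45G reads 41.8% to 66.8% in all 4.

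The 2 mutant lines, on slide 2, were compared with each other. RAD51D alone reached 2-fold, the 5KR-H2A.Z line lying 2.00-fold below the other. It is 2.86% of the members, beside 2.16% of all genes lower and 1.63% higher in the 5KR-H2A.Z line. Its 2 probes differed by -1.0 and -1.09, and of the 7 alternatives that changed the value 5 were past 2-fold. The next largest differences were -0.88 for MND1 and -0.87 for NBN, both lower in DKO+5KR-H2A.Z and both short of 2-fold. The median was -0.05 over the members and 0.05 over all genes.

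Across the slides, where line and slide cannot be told apart, both mutant lines had repair genes above DKO and 0 below it by 2-fold. In DKO+5KR-H2A.Z these were NBN, DCLRE1C, DDB2, RAD51D and FANCL, 5 of 35 beside 6.79% of all genes higher and 1.71% lower. The H2A-H2A.Z line had NBN, DCLRE1C, RAD51D, FANCC, MND1 and DDB2 above DKO, 6 of 35 beside 10.0% of all genes higher and 3.55% lower. NBN lay 4.56-fold above DKO in the first line and 8.31-fold above it in the second, and RAD51D 2.69-fold and 5.38-fold. The second probe of DDB2 differed by 0.08 in the first line and by -0.22 in the second, and with the median over both probes DDB2 was past 2-fold in neither. Under all 9 alternative treatments of the values, 2 of the 5 in the first line and 3 of the 6 in the second stayed past 2-fold. Under normexp DCLRE1C, not well above background in DKO, fell short of 2-fold in both lines. So did FANCL in the first line and MND1 in the second. Both comparisons share the DKO array with those on slide 1.

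Each mutant line was also set against the H2A.Z.1 line. MND1 was the 1 member of 35 that was 2-fold apart in the 5KR-H2A.Z line, 2.61-fold lower, beside 2.69% of all genes apart. In the H2A-H2A.Z line 0 of 35 were apart, beside 2.89% of all genes. Against WT, GADD45G was the 1 member apart in the 5KR-H2A.Z line, 2.32-fold lower, beside 6.54% of all genes apart. RAD51D, at 51.6% of WT in that line, differed by -0.96 on its brighter probe and by -1.07, past 2-fold, on its second. Of the 6 alternatives that changed the RAD51D value, 3 were past 2-fold. MND1 was the 1 member apart from WT in the H2A-H2A.Z line, 2.79-fold higher, beside 4.11% of all genes apart.

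Most repair genes varied little over the 5 arrays. The range from the lowest to the highest array was under 0.5 log2 for 21 of the 35 members and for 40.7% of the 4508 named genes. It reached 2-fold for 9 of the 35 members and for 22.6% of the 4508 named genes. DKO was the lowest array for 8 of the 9 members, read across both slides. For GADD45G it was lowest by only 0.05 and 0.08 below the 5KR-H2A.Z and H2A.Z.1 lines, and these signs turned under 2 alternatives. On its brighter probe FANCL reached 2-fold only across the slides. The second probe of DDB2 was lowest in the H2A.Z.1 line. Among all 1021 genes that ranged 2-fold or more, DKO was the lowest array for 47.8%. Of the 28 members within 2-fold between DKO and WT, 19 changed sign under at least 1 alternative treatment of the values. The signs printed above for those differences therefore depend on the treatment and are not read as directions.

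For 22 members with at least 2 probes compared between DKO and WT, the median spread between probes was 0.08 (SD, log2), beside 0.08 over all genes. Among the members it was largest for DDB2, at 1.30. The differences of RAD51D and GADD45G were past 2-fold on both of their probes, that of FANCC on 1 of 2, and NBN and FANCA have 1 probe each. Those of DCLRE1C were past 2-fold on both probes too, but neither probe was well above background in DKO.

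**Figure D4:**
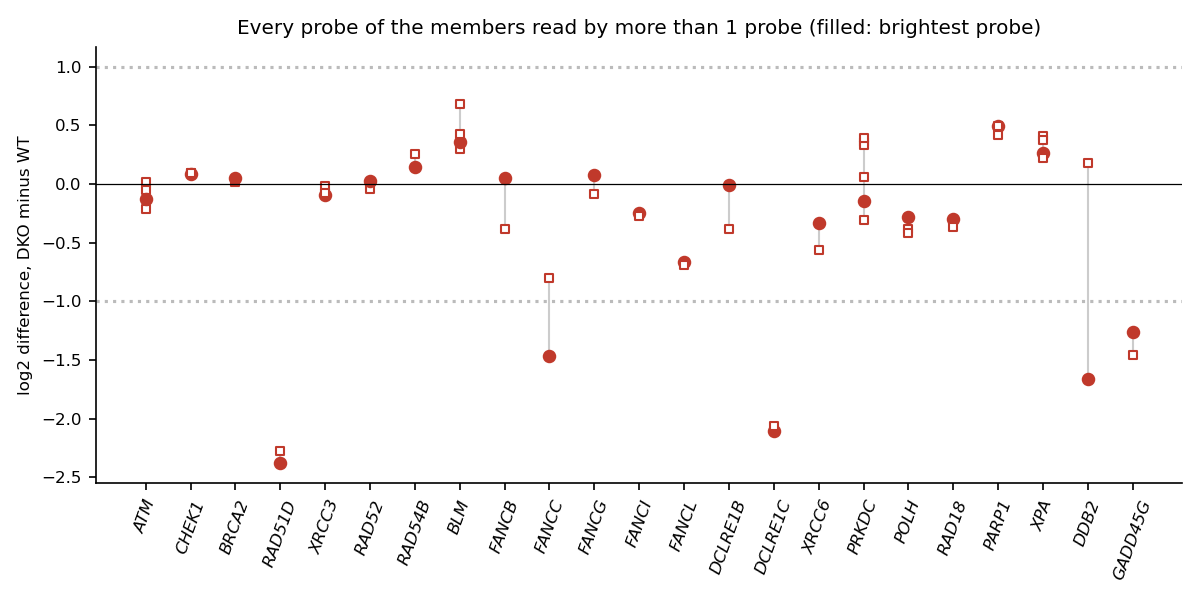
Log2 difference between DKO and WT on every probe of the members read by more than 1 probe, with the brightest probe filled and dotted lines at 2-fold. The 2 probes of RAD51D, of DCLRE1C and of GADD45G lie together below -1, whereas those of DDB2 lie at -1.66 and 0.18. Neither probe of DCLRE1C was well above background in DKO.

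Further repair genes, 122 in a list of replication checkpoint, recombination, mismatch, excision and p53 response genes, were set beside the members. Both lists were chosen with earlier results of these data known, so their shares are not an independent comparison. Of these 53 were measured and 52 compared. Between DKO and WT, 3 of the 52, or 5.77%, were lower by 2-fold, beside 11.1% of all genes, and 3.85% were higher, beside 4.21%. The median over the 52 was 0.16, beside 0.15 over all genes. The checkpoint mediator CLSPN was lower in DKO by 1.15 log2, the translesion polymerase subunit MAD2L2 by 1.08 and the p53 inhibitor MDM2 by 1.23. CLSPN was past 2-fold on 1 of its 2 probes and MAD2L2 on 2 of 2. NEIL1, a base excision glycosylase, was higher by 1.18, and by 0.69 to 1.36 over the alternatives. Between DKO+H2A.Z.1 and DKO, MDM2 was higher by 1.11, and NEIL1 and the cell cycle inhibitor CDKN1A differed by -1.04 and -1.05. Each of these 3 genes has 1 probe. Of 9 alternatives, MDM2 was past 2-fold in 7, NEIL1 in 5 and CDKN1A, a dim gene at -5.04 and -4.00, in 6. The 3 differences named in this comparison are counted next. These are 1.92% of the 52 higher and 3.85% lower, beside 8.08% and 2.65% of all genes, and the median was -0.25, beside -0.21. DNTT, the polymerase that adds bases at rearranging ends, was below WT in the H2A.Z.1 line by 2.25-fold.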

How the data were processed

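The deposited scanner files hold 1 Agilent one-colour array each, and per the file headers the intensity used is Feature Extraction 11.5.1.1's processed signal, background-subtracted by the authors' scanner software. The deposited table of values is that intensity multiplied by 1 constant for each array (1.03 to 1.23). Control spots were left out, which left 43803 spots. Log2 was taken, the 75th percentile over these spots was subtracted, and marked spots (2 to 37 an array) were then left out. Of 13060 probes with a RefSeq accession, 11935 of 43603 probes were named through RefSeq's gene table, and MRE11A was matched as a synonym of MRE11. Where a gene had several probes, that of the highest mean level was used. Genes well above background on either array of a comparison entered it, and 2-fold was the call. DCLRE1C, dim in DKO, was read there at its own signal.

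The members and lists were chosen with earlier results of these data known. Values on all arrays were given for members past 2-fold within a slide and for the best-measured of each role. MRE11A, FANCL and LIG4 fall outside that rule and were chosen after their values were seen. Alternatives were normexp, quantile, cyclic loess, median and spike-in scaling, probe and spot rules, filters, thresholds and the deposited table. Replicate spots of 38 probes differed by a median SD of 0.05 to 0.06 log2. With 1 array a line, the number of arrays limits the precision. The array's annotation and the gene table use different genome builds, so no coordinates were printed. Python 3.11.15, numpy 2.4.6, pandas 2.3.3 and limma 3.58.1 in R 4.3.3 were used, checked on simulated data. A few genes of the marker and further repair lists are not reported here.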

Additional observations from a re-analysis of the deposited data

How the results depend on the processing

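No paired analysis was possible because each line was measured on 1 array, and for the same reason no replicate could be left out. The 16 differences past 2-fold within a slide were recomputed under 9 alternatives, which gave 144 values. Of these 40 lay within 0.01 of the reported value, some by construction (the deposited table less its percentile, a single probe, no marked spot). Of the other 104, 98 stayed past 2-fold and 0 turned direction. The 16 were picked for being past 2-fold on these arrays. Median centring, spike-in scaling and the deposited table at its own scale add 1 constant to all differences of a comparison. That constant was too small to turn a 2-fold difference, so under these alternatives the direction was fixed in advance. With spike-in scaling the median of all genes between DKO and WT was -0.35 in place of 0.15, and that of the members -0.63. Median centring turned the members' median to 0.05 between DKO and WT, and against DKO to -0.12 for the 5KR-H2A.Z line and -0.09 for the H2A-H2A.Z line. With spike-in scaling the share of all genes lower in DKO than in WT was 19.1% and the share higher 1.81%, in place of 11.1% and 4.21%. With median centring the 2 shares were 9.15% and 6.61%. Spike-in scaling gave 10 of 35 members past 2-fold between DKO+H2A.Z.1 and DKO, beside 17.5% of all genes. It gave 3 between the mutant lines, beside 4.54%, and 12 between DKO+H2A-H2A.Z and DKO, beside 19.9%. Normexp gave 3 between DKO+5KR-H2A.Z and DKO, beside 4.20% of all genes. Both normexp and median centring gave 0 between the mutant lines, beside 1.03% and 3.83% of all genes. At 1.5-fold the counts were 8 of 35 between DKO+H2A.Z.1 and DKO, beside 26.2% of all genes, and 4 between the mutant lines, beside 10.0%. They were 8 between DKO+5KR-H2A.Z and DKO, beside 20.3%, and 10 between DKO+H2A-H2A.Z and DKO, beside 29.5%. At 3-fold the counts were 4 between DKO and WT, beside 8.01% of all genes, and 1 between DKO+H2A.Z.1 and WT, beside 3.44%. Between the mutant lines 0 passed 3-fold, beside 1.72%. Against DKO there were 2 in the 5KR-H2A.Z line, beside 3.72%, and 3 in the H2A-H2A.Z line, beside 6.11%. Other counts of these 6 comparisons were within 1.5 times. The deposited table at its own scale was added after seeing the data. Dim signals left POLK out and leave the level of DCLRE1C in DKO uncertain.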
